A study of Mus musculus with 8 samples.

Results

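Collagen genes were followed in the ventricles of mouse hearts at E14.5, in mutants of the Notch pathway gene Mib1 and in wild-type siblings. The members were all genes whose symbol is Col, a number, the letter a and a number, which took 37 of the 13869 genes measured. They comprised 10 fibrillar, 8 basement membrane, 7 fibril-associated (FACIT), 4 type VI, 2 type VIII and 4 transmembrane collagens, with types VII and XXVI left as a remainder of 2. Polyadenylated RNA was sequenced from 4 libraries of Mib1flox; TnT-Cre mutants and 4 libraries of WT siblings, each library a pool of ventricles, with 16 hearts of each genotype shared among its 4 pools. The cardiac troponin T promoter drives Cre in cardiomyocytes, so Mib1 was targeted in those cells. Whether the floxed allele was homozygous, and whether the WT siblings carried Cre or a floxed allele, is not stated in the sources used here. Nothing in the labels ties the pools to separate litters, so p-values measure the spread between pools.

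Collagens are trimeric matrix proteins built around a triple helix. Fibrillar collagens form the fibres of connective tissue, type IV forms the network of basement membranes, FACIT collagens coat fibrils, type VI forms beaded filaments that link cells to matrix, and transmembrane collagens sit on the cell surface and can be shed. In the developing heart, cushion and interstitial mesenchyme, the epicardium and its derivatives, and the endothelium are known sources of collagen, and basement membranes surround cardiomyocytes and vessels. Mib1 encodes a ubiquitin ligase that Notch ligands need in the cell that sends the signal.

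Levels are in CPM, counts scaled to a common library size, obtained from the deposited table after its own scaling was undone. Total counts per library ran from 6597943 to 11506082 in mutants and from 6307634 to 8964058 in WT. Mib1 itself had 106, 103, 95.3 and 96.3 CPM in the mutant libraries, against 150.3, 166, 160.5 and 167 CPM in the WT libraries. Every mutant pool lay below every WT pool, with a log2 difference of −0.68 ± 0.06 (SE; adjusted p = 8.62e-06, limma), and an exact permutation test (two-sided) gave p = 0.0286, the lowest available to 4 pools against 4. All 12 cardiomyocyte markers were detected and none was called, with 3 above and 9 below 0 and summed levels of 42912 to 45988 CPM in mutants and 44722 to 49121 CPM in WT. Of these, Tnnt2 (log2 difference −0.21, adjusted p = 0.0658) and Myl2 (−0.17, adjusted p = 0.135) lay lower in every mutant pool than in any WT pool. The mutant library numbered 1 stood apart. Its log2 CPM, relative to the mean of the 8 libraries, changed by −0.22 for each 10 points of transcript GC content, against −0.054 to 0.085 in the other 7 libraries. Collagen transcripts had a median GC content of 56.2%, against 50.1% over all genes tested, and this library was the lowest of the 8 in 19 of 36 collagens (52.8%), against 20.6% of all genes. Results are therefore also given without it where it decides a call.

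Most collagens were measured at much the same level in both genotypes, and 4 of them were called as different. Col12a1, a FACIT collagen, rose 1.61-fold in mutants. Col13a1 and Col23a1, both transmembrane collagens, fell 1.58-fold and 1.28-fold, and Col26a1, a secreted collagen-like chain, fell 1.41-fold. Col12a1 was called in all of 22 refits with other settings or 1 library fewer. Col13a1 lost its call in 3 of them, Col23a1 in 7 and Col26a1 in 7. The abundant chains of types I, III, IV, V and VI were not called. Of the 36 collagens tested, 1 was called higher and 3 lower at an adjusted p under 0.05 (limma, adjusted by Benjamini and Hochberg over all 13740 genes tested), where 2.24% of all genes were called, 0.99% as higher and 1.25% as lower. The mutant pools lay wholly above the WT pools for 5 collagens and wholly below them for 3, and over all genes tested such separation was seen in 8.92%, 4.27% upwards and 4.65% downwards. At an unadjusted p under 0.05 stood 9 collagens, against 14.8% of all genes. The log2 difference was within 0.15 of 0 for 24 of the 36, and its median was −0.02, against 0.00 over all genes.

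Summed over the 37 members, collagen transcripts came to 6788, 7647, 7818 and 7453 CPM in the mutant libraries, against 7909.5, 7678, 7840.5 and 7287 CPM in the WT libraries. The groups overlapped, and the lowest sum belonged to mutant library 1. The 5 genes Col3a1, Col4a1, Col1a1, Col1a2 and Col4a2 held 68.4% of collagen CPM, a share that also reflects transcript length. Per kilobase of transcript, the highest mean level was that of Col3a1, with 272 CPM per kb in mutants and 286 in WT, followed by Col4a1 with 185 in mutants and 184 in WT. The 4 called genes lay far lower on this scale, Col12a1 at 9.25 CPM per kb in mutants and 5.75 in WT, and Col13a1 at 2.95 in mutants and 4.62 in WT. Col17a1, a collagen of epithelial adhesion plaques, was too low to test, with 27 counts over the mutant libraries and 39 over the WT libraries. In the annotation 7 more genes carry a collagen symbol (Col5a3, Col6a4, Col6a5, Col10a1, Col19a1, Col22a1 and Col28a1), and they were not analysed here.

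**Figure D1:**
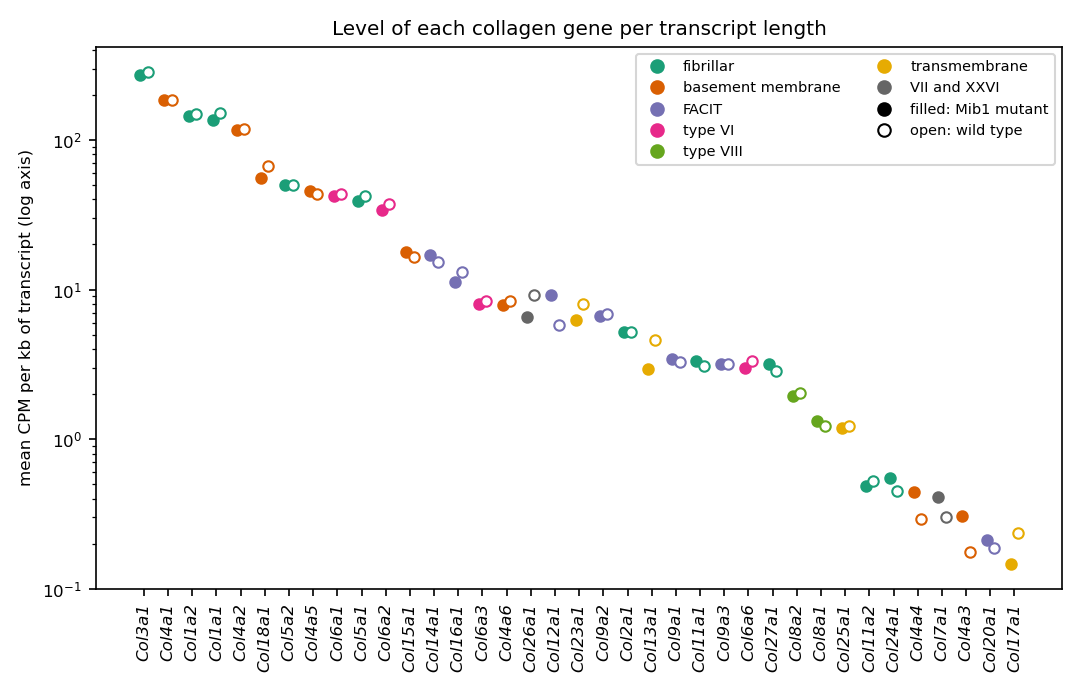
Mean level of each of the 37 collagen genes in CPM per kilobase of transcript (log axis), with filled points for 4 mutant libraries and open points for 4 WT libraries, coloured by collagen class and ordered by level. Col3a1 stands at the top near 272 CPM per kb in mutants and 286 in WT, and for most genes both points nearly coincide.

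**Figure D2:**
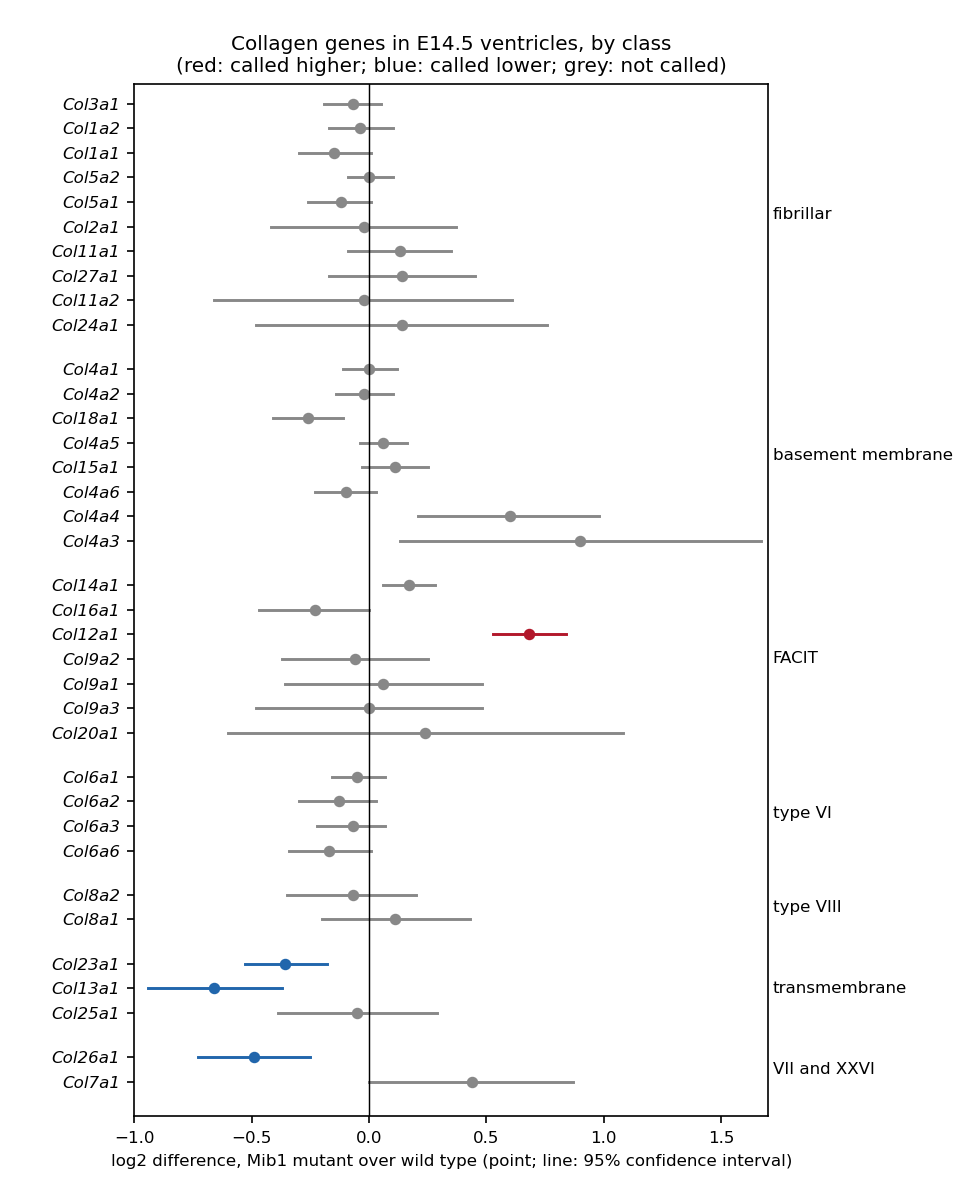
Log2 difference, mutant over WT, of the 36 tested collagens with its 95% confidence interval, grouped by class. Red marks the 1 gene called higher, blue the 3 called lower and grey the 32 not called, of which most lie close to 0.

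Col12a1 (ENSMUSG00000032332, chromosome 9) encodes the chain of type XII collagen, which lies along type I collagen fibrils in tissues under tension. It had 117, 109, 95.6 and 104 CPM in the mutant libraries, against 66.9, 65.7, 59.8 and 72.4 CPM in the WT libraries. The lowest mutant pool was well above the highest WT pool. The means were 106 ± 8.78 CPM in mutants and 66.2 ± 5.14 CPM in WT (SD, n = 4 each), a log2 difference of 0.68 ± 0.07 (SE; 95% interval 0.53 to 0.84; adjusted p = 0.000107, limma). It was the 1 collagen called in each of 22 refits with other settings or 1 library fewer, with log2 differences of 0.64 to 0.73, and without mutant library 1 the difference was 0.64. Smooth muscle and pericyte markers, 10 of 10 detected and none at 0, were mixed, with 6 above and 4 below 0 and a median of 0.10. Acta2 and Cnn1 of that list, 2 contractile genes, were called higher and Abcc9, a channel gene, was called lower. The list summed to 1773 to 1887 CPM in mutants and 1485 to 1669.9 CPM in WT, but without Acta2 the sums overlapped, at 729 to 766 CPM in mutants and 719 to 756 CPM in WT. Fibroblast and cushion mesenchyme markers, 12 of 12 detected, overlapped between the groups with sums of 1687 to 2027 CPM in mutants and 1676 to 1807 CPM in WT, and Fbln1 of that list, a matrix gene of cushion mesenchyme, was called lower. The part of these cell types in the Col12a1 difference was not tested, and in whole ventricles more or fewer cells of a type and more or less RNA per cell cannot be told apart.

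**Figure D3:**
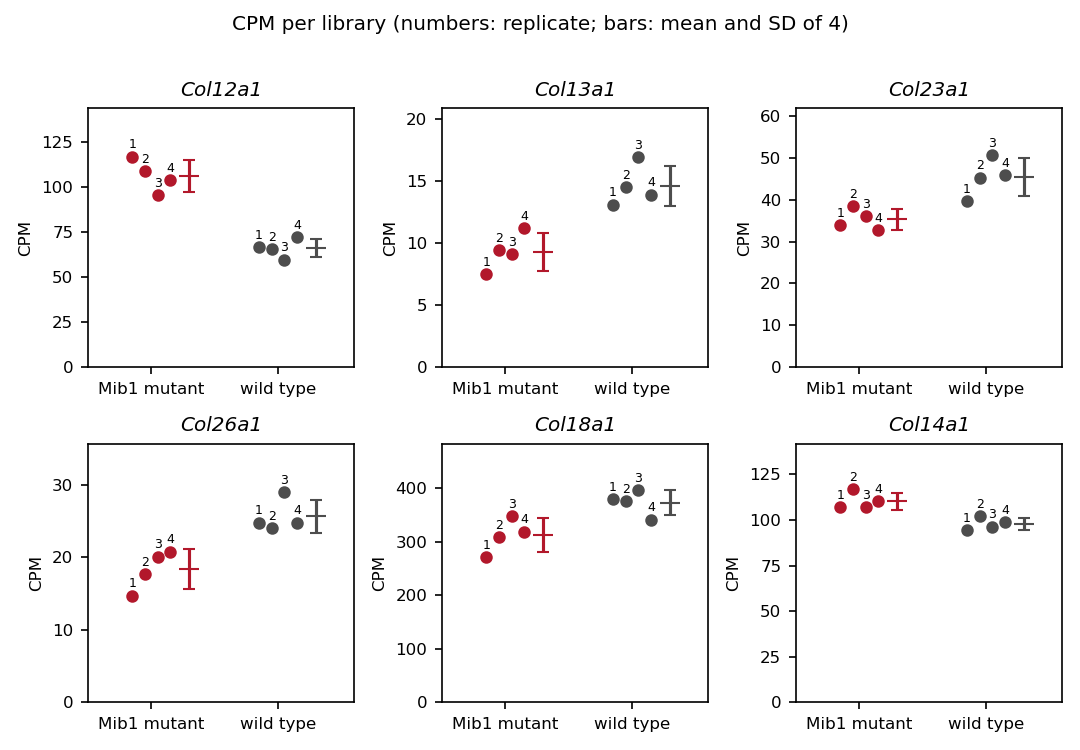
Level in CPM of Col12a1, Col13a1, Col23a1, Col26a1, Col18a1 and Col14a1 in each library (points marked by replicate number), with the mean and SD of 4 libraries, mutants left and WT right. Mutant and WT points separate for all of these except Col18a1, where mutant 3 at 348 CPM lies above WT 4 at 341 CPM.

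The other FACIT collagens gave no call, and the class median was 0.06 over 7 tested genes. Col14a1, whose type XIV collagen binds fibrils and limits their growth, had 107, 117, 107 and 110.2 CPM in the mutant libraries, against 94.5, 102, 96.4 and 98.8 CPM in the WT libraries. The groups did not overlap, but the difference was small, at 0.17 ± 0.05 on the log2 scale (adjusted p = 0.122, limma). Col16a1, a chain found near fibrils and basement membranes, had 47.3, 55.6, 67.9 and 61.4 CPM in mutants, against 70.0, 71.3, 75.0 and 55.8 CPM in WT. Its groups overlapped widely, with a log2 difference of −0.23 (95% interval −0.47 to 0.00; adjusted p = 0.341). The type IX chains Col9a1, Col9a2 and Col9a3, which coat type II fibrils in cartilage, had log2 differences of 0.06, −0.06 and 0.00, each with an interval that spans 0. Col20a1 was read from 3 to 14 counts per library, too few to place its difference better than −0.60 to 1.08. Summed over the class, FACIT collagens came to 304 to 325 CPM in mutants and 261 to 289 CPM in WT, but without Col12a1 the sums overlapped, at 187 to 229.7 CPM in mutants and 188 to 224 CPM in WT.

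Of the transmembrane collagens, Col13a1 and Col23a1 were lower in mutants. The windows around their starts are shown here because both genes were called in the same direction, and the letters searched were TGGGAA, the core of sites bound by RBPJ, the DNA-binding factor of Notch signalling, and TATAAA, the TATA box. Each window holds 250 bases before and 50 bases after the annotated start, from RefSeq on GRCm38.p6, which matched 29 of the 37 members by symbol and did not match Col1a1, Col2a1, Col4a3, Col5a2, Col9a3, Col12a1, Col14a1 and Col26a1. The Col13a1 window is chr10:61979059-61979358 on the minus strand and the Col23a1 window chr11:51289670-51289969 on the plus strand, both printed 5′ to 3′ with motif matches on either strand in capitals.
Col13a1: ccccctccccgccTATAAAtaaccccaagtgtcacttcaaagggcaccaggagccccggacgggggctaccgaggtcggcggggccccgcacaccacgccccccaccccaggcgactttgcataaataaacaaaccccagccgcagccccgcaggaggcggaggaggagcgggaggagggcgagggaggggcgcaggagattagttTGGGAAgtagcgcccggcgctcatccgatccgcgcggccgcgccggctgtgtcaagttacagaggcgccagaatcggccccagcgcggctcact
Col23a1: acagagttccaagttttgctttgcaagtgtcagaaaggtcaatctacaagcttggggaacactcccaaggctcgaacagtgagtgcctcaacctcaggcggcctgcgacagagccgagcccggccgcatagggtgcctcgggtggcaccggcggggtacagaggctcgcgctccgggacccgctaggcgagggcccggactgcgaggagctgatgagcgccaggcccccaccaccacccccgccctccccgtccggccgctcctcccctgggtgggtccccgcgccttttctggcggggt
The Col13a1 window holds 1 TATAAA and 1 TGGGAA, which do not overlap, and the Col23a1 window holds neither. TGGGAA occurred in 9 of 32 collagen windows (28.1%; some genes have more than 1 start) and in 25.6% of 32851 mouse windows, and TATAAA in 12.5% of the collagen windows and 13.6% of all. All of these are matches of letters at any position in the window and were not tested as sites.

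Col13a1 (ENSMUSG00000058806) encodes type XIII collagen, a surface protein of cell adhesion sites and of the neuromuscular junction. It had 7.49, 9.41, 9.13 and 11.21 CPM in the mutant libraries, against 13.11, 14.54, 16.85 and 13.94 CPM in the WT libraries, from 310 counts in mutants and 443 in WT. All mutant pools lay below all WT pools. The log2 difference was −0.66 ± 0.13 (SE; 95% interval −0.94 to −0.37; adjusted p = 0.0192, limma), and without mutant library 1 it was −0.56 (adjusted p = 0.0358). The call was lost without WT library 2 (adjusted p = 0.0632) and without WT library 3 (adjusted p = 0.0733). Col23a1 (ENSMUSG00000063564) encodes type XXIII collagen, which is partly shed from the cell surface. It had 33.9, 38.5, 36.1 and 32.8 CPM in the mutant libraries, against 39.6, 45.3, 50.6 and 45.9 CPM in the WT libraries. The groups did not overlap, although mutant 2 and WT 1 came close. The log2 difference was −0.36 ± 0.08 (SE; 95% interval −0.53 to −0.18; adjusted p = 0.0375), but the call was lost without mutant library 1 (−0.34, adjusted p = 0.0669), without mutant library 4, and without any of WT libraries 2, 3 and 4. Col25a1, a transmembrane collagen of neurons that motor axons need, had 7.94 ± 1.26 CPM in mutants and 8.26 ± 1.43 CPM in WT (SD, n = 4 each), a log2 difference of −0.05 with an interval of −0.39 to 0.29. Col17a1 had 0.441, 1.4, 0.299 and 1.12 CPM in mutants, against 0.865, 0.777, 2.05 and 1.59 CPM in WT, and its groups overlapped.

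Col26a1 (ENSMUSG00000004415, chromosome 5) encodes a secreted chain with short collagen stretches. It had 14.7, 17.7, 20.1 and 20.8 CPM in the mutant libraries, against 24.8, 24.0, 29.0 and 24.8 CPM in the WT libraries. The highest mutant pool was below the lowest WT pool. The log2 difference was −0.49 ± 0.11 (SE; 95% interval −0.73 to −0.25; adjusted p = 0.0331, limma). Leaving out mutant library 1 gave −0.39 (adjusted p = 0.0523), and leaving out mutant library 2 or any WT library also ended the call, with adjusted p between 0.0643 and 0.117. Col7a1, the chain of the anchoring fibrils of skin, had 3.09, 4.07, 3.74 and 4.24 CPM in mutants, against 3.31, 3.11, 2.52 and 2.2 CPM in WT. The mutant pools tended to the upper end with overlap, and the log2 difference of 0.44 (interval 0.00 to 0.87) was not called (adjusted p = 0.336). Beside the 3 lower collagens, the sums of the endothelial, endocardial and macrophage marker lists did not overlap between the groups and lay lower in mutants. The same held for the Schwann and neural crest glia markers, at 27.2 to 30.5 CPM in mutants and 30.8 to 33.0 CPM in WT. Endothelial markers, 12 of 12 detected, had 2 called lower and 12 below 0, and summed to 1292 to 1362 CPM in mutants and 1479 to 1539.8 CPM in WT. Endocardial markers, 8 of 8 detected, had 4 called lower, 6 below 0 and 2 above 0 (Nfatc1 at 0.05 and Hapln1 at 0.07), and summed to 452 to 478 CPM in mutants and 569 to 595 CPM in WT. Macrophage markers, 10 of 10 detected, had 3 called lower and 10 below 0, and summed to 72.3 to 89.0 CPM in mutants and 106 to 129 CPM in WT. No detected marker of these lists was at 0 in any library. Their part in the lower collagen levels was not tested.

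The fibrillar collagens showed no call among 10 genes, with 4 above and 6 below 0 and a median of −0.02. Col3a1, the main fibrillar chain of distensible tissues such as vessel walls, had 1388, 1571, 1604 and 1493 CPM in the mutant libraries, against 1619.7, 1582, 1647 and 1505 CPM in the WT libraries. The groups overlapped, with a log2 difference of −0.07 (95% interval −0.19 to 0.05; adjusted p = 0.61, limma). Col1a1, the α1 chain of type I collagen, had 695, 804, 916 and 819 CPM in mutants, against 939.8, 889, 909 and 828 CPM in WT. Mutant library 1 was the lowest of the 8, the log2 difference was −0.15 ± 0.07 (SE; adjusted p = 0.373), and without that library it was −0.08. Col1a2, its partner chain, had 705, 777, 861 and 741 CPM in mutants, against 816, 782, 823 and 734 CPM in WT, with a log2 difference of −0.04 (interval −0.17 to 0.10). The log2 ratio of Col1a1 to Col1a2 averaged 0.07 ± 0.07 in mutants and 0.18 ± 0.03 in WT (SD, n = 4 each), with ranges that met at 0.14.

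Type V collagen starts and limits type I fibrils. Its chain Col5a2 averaged 331 ± 11.5 CPM in mutants and 331 ± 8.72 CPM in WT (SD, n = 4 each), and the interval of its log2 difference was narrow, at −0.09 to 0.10. Col5a1 had 289, 332, 356 and 337 CPM in mutants, against 377, 357, 360.3 and 334 CPM in WT. All but 1 of the WT pools lay above all mutant pools, and the log2 difference of −0.12 ± 0.06 (SE; adjusted p = 0.386) came to −0.06 without mutant library 1. Col11a1, a chain of the thin fibrils of cartilage and cushions, had 25.0, 25.1, 23.6 and 28.9 CPM in mutants, against 21.6, 28.8, 22.0 and 21.9 CPM in WT, and was not called. Col2a1, the main collagen of cartilage, which valve mesenchyme also makes, had 20.7, 23.3, 39.7 and 23.0 CPM in mutants, against 21.8, 29.6, 33.2 and 22.0 CPM in WT. Its level varied more between pools than between genotypes. The 3 cartilage markers detected of 9 listed, Acan, Matn4 and Hapln3, summed to 6.88 to 13.6 CPM in mutants and 4.77 to 12.1 CPM in WT, and their part in the Col2a1 spread was not tested. Col27a1, Col11a2 and Col24a1 had log2 differences of 0.14, −0.02 and 0.14, with intervals that span 0 and, for Col11a2 and Col24a1, 14 to 46 counts per library.

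Basement membrane collagens gave no call among 8 genes, with a median of 0.03. Col4a1 and Col4a2 encode the chains of the common type IV network and lie on opposite strands of chromosome 8, with RefSeq starts 21 bases apart placed so that the first 22 bases of their transcripts overlap. Col4a1 had 1122, 1305, 1225 and 1243 CPM in the mutant libraries, against 1262, 1212, 1225 and 1175 CPM in the WT libraries. Its WT values lay inside the mutant range, and the log2 difference was 0.00 (interval −0.11 to 0.12). Col4a2 had 678, 815, 761 and 770.5 CPM in mutants, against 796, 744, 778 and 743 CPM in WT, with a log2 difference of −0.02 (interval −0.14 to 0.10). The log2 ratio of Col4a1 to Col4a2 held within 0.68 to 0.73 in mutants and 0.65 to 0.70 in WT, the tightest spread among the 9 chain pairs compared.

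Col18a1, whose type XVIII collagen is a heparan sulfate proteoglycan of basement membranes and the source of endostatin, had 271, 309, 348 and 319 CPM in the mutant libraries, against 379, 376, 396 and 341 CPM in the WT libraries. All but mutant 3 lay below every WT pool. The log2 difference was −0.26 ± 0.07 (SE; 95% interval −0.41 to −0.11), just outside the threshold at an adjusted p of 0.0755 (limma). It passed in 4 of the refits, among them robust variance moderation (adjusted p = 0.0451) and library weights (adjusted p = 0.0253), and without mutant library 1 it was −0.20 (adjusted p = 0.119). The endothelial and endocardial sums given above were lower beside it, and their part in it was not tested. Col15a1, a related collagen of capillary and muscle basement membranes, had 90.3, 98.1, 85.9 and 95.7 CPM in mutants, against 95.1, 82.0, 83.9 and 81.6 CPM in WT, and was not called (adjusted p = 0.463).

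Per kilobase, the other type IV chains were lower than Col4a1 and Col4a2, the highest of them Col4a5 at 45.4 CPM per kb in mutants and 43.5 in WT. Col4a5 had 311, 291, 291 and 293 CPM in the mutant libraries, against 288, 286, 289 and 275 CPM in the WT libraries. The mutant pools all lay above the WT pools, by little, with a log2 difference of 0.06 ± 0.04 (SE; adjusted p = 0.572). Col4a6, which starts 1343 bases from Col4a5 on the opposite strand of chromosome X, had 52.3 ± 2.71 CPM in mutants and 56.0 ± 2.24 CPM in WT (SD, n = 4 each). The log2 ratio of Col4a5 to Col4a6 ran from 2.41 to 2.67 in mutants and from 2.31 to 2.38 in WT, so its groups did not overlap. Mutant library 1, with the highest Col4a5 and the lowest Col4a6 (49.0 CPM) of all libraries, gave the upper end of the mutant range. Col4a3 and Col4a4 join Col4a5 in the network of mature kidney filters. Col4a4 had 4.14, 4.71, 4.04 and 4.98 CPM in mutants, against 2.88, 3.55, 2.52 and 2.81 CPM in WT, from 151 counts in mutants and 91 in WT. Col4a3 had 2.29, 2.67, 2.24 and 3.24 CPM in mutants, against 0.576, 2.0, 1.26 and 2.2 CPM in WT, from 88 counts in mutants and 48 in WT. For both genes every mutant pool was above every WT pool, but neither was called, with log2 differences of 0.60 (interval 0.21 to 0.98; adjusted p = 0.117) for Col4a4 and 0.90 (interval 0.13 to 1.67; adjusted p = 0.257) for Col4a3. At such counts the size of the difference is poorly fixed.

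Type VI collagen, whose loss causes muscle disease in people, gave no call among 4 chains, all of them below 0 with a median of −0.10. Col6a1 had 161, 178, 179 and 176 CPM in the mutant libraries, against 188, 182, 177 and 169 CPM in the WT libraries. Its groups overlapped, and the lowest value again came from mutant library 1. Col6a2 averaged 159 ± 16.4 CPM in mutants and 174 ± 13.3 CPM in WT, and Col6a3 80.9 ± 3.81 CPM in mutants and 85.3 ± 7.41 CPM in WT (SD, n = 4 each). Col6a6, a chain that can take the place of Col6a3, had 26.7, 24.0, 26.6 and 27.2 CPM in mutants, against 32.6, 30.3, 26.9 and 27.9 CPM in WT, with a log2 difference of −0.17 (interval −0.34 to 0.01; adjusted p = 0.356). The log2 ratio of Col6a1 to Col6a3 was 1.10 ± 0.04 in mutants and 1.07 ± 0.06 in WT. Type VIII collagen, a short chain of vessel walls and corneal endothelium, had Col8a1 at 6.75 ± 0.421 CPM in mutants and 6.28 ± 0.933 CPM in WT and Col8a2 at 8.37 ± 0.867 CPM in mutants and 8.80 ± 0.940 CPM in WT. Neither was called, and their intervals of −0.20 to 0.43 for Col8a1 and −0.35 to 0.20 for Col8a2 span 0.

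The deviation of mutant library 1 followed the GC content of the transcripts. Among the 13 tested collagens of highest GC content (58.9 to 62.9%), mutant library 1 was the lowest of the 8 in 11, with a median deviation of −0.40 on the log2 scale. Among the 11 of middle content (52.5 to 58.0%) it was the lowest in 8, with a median of −0.14, and among the 12 of lowest content (45.9 to 52.4%) in 0, with a median of 0.07. With the GC trend of each library removed, a setting chosen after seeing the data, the calls over all genes rose from 308 to 525. Among collagens 5 were then called, Col12a1 and Col14a1 as higher and Col13a1, Col18a1 and Col26a1 as lower. On that scale the log2 differences were 0.68 for Col12a1, 0.18 for Col14a1 (adjusted p = 0.0426), −0.59 for Col13a1 (adjusted p = 0.00792), −0.19 for Col18a1 (adjusted p = 0.00892) and −0.42 for Col26a1 (adjusted p = 0.00827). Col23a1 then missed the threshold at −0.30 (adjusted p = 0.051). Leaving out mutant library 1 also moved uncalled collagens, Col16a1 to −0.14 (−0.23 with it), Col27a1 to 0.30 (0.14 with it), Col6a2 to −0.07 (−0.13 with it), Col20a1 to 0.37 (0.24 with it) and Col25a1 to −0.15 (−0.05 with it), and none of these was called either way.

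**Figure D4:**
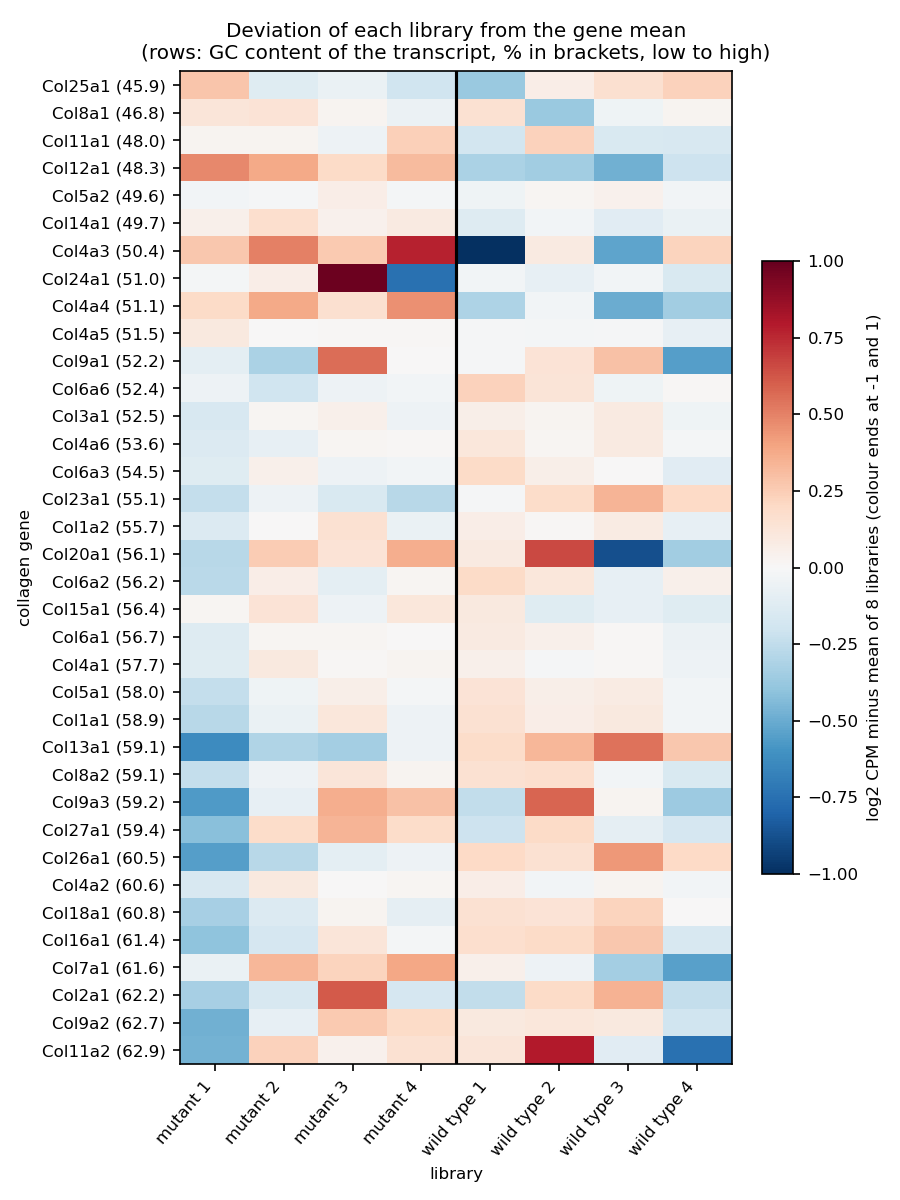
Log2 CPM of each tested collagen in each library minus the mean of the 8 libraries, as colour, with genes ordered by transcript GC content from low to high, mutant libraries left and WT libraries right. Mutant library 1 is low for the genes of highest GC content, with a median deviation of −0.40, and Col12a1 is high in all 4 mutants and low in all 4 WT libraries.

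The genes that fold, process, bind and degrade collagen gave no call in any of 6 lists, although single genes passed under other settings. Over all genes tested 2.24% were called, and at that share lists of 8 to 20 genes would hold few calls, if any. Of the 20 folding and hydroxylation enzymes, 6 were above and 14 below 0 with a median of −0.04. In that list the mutant pools lay wholly above the WT pools for 2 genes (P4ha3 and Plod2) and wholly below for 2 (P3h1 and Crtap). Over all genes tested such separation was seen in 4.27% upwards and 4.65% downwards. The one of smallest p, P4ha3, a subunit of the prolyl hydroxylase that stabilises the triple helix, had 22.7, 26.3, 24.5 and 26.4 CPM in mutants, against 19.2, 21.5, 19.7 and 19.4 CPM in WT. Its groups did not overlap, and the log2 difference of 0.32 ± 0.08 (SE; adjusted p = 0.0639, limma) passed in 4 refits, without mutant library 1 at 0.37 (adjusted p = 0.0381), with the GC trend removed (0.00967), with library weights (0.0296) and with quantile scaling (0.048). The 11 genes of procollagen cleavage and cross-linking had a median of 0.03, and Lox, which cross-links collagen and elastin, had 49.4, 53.8, 67.0 and 41.1 CPM in mutants, against 43.1, 40.3, 45.0 and 39.0 CPM in WT. Its groups overlapped through mutant 4, and it passed without that library at 0.43 (adjusted p = 0.0468) but not with it at 0.32 (adjusted p = 0.209). Collagen receptors, 8 tested, had a median of 0.06, and Ddr1, a receptor tyrosine kinase that collagen activates, had a log2 difference of 0.13 ± 0.06 (SE; adjusted p = 0.33), and passed at 0.20 with the GC trend removed (adjusted p = 0.0059).

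Of 8 collagen-cleaving proteases and their inhibitors, 4 were above and 4 below 0. Mmp16, a membrane-bound metalloprotease, had 9.26, 9.41, 8.68 and 7.72 CPM in mutants, against 6.92, 6.11, 6.46 and 6.36 CPM in WT. Its groups did not overlap, with a log2 difference of 0.43 ± 0.12 (SE; adjusted p = 0.0935, limma) that passed without the variance trend (adjusted p = 0.0454). Among 12 collagen-binding matrix proteins the median was 0.00, and Comp, which binds fibrillar and type IX collagens in cartilage and tendon, had 1.06, 1.4, 1.05 and 1.12 CPM in mutants, against 2.59, 2.22, 2.05 and 2.2 CPM in WT. All mutant pools were below all WT pools, from 39 counts in mutants and 69 in WT, with a log2 difference of −0.94 ± 0.25 (SE; adjusted p = 0.0737) that passed without the variance trend (adjusted p = 0.0076). The 14 laminins, nidogens and proteoglycans that share basement membranes with type IV collagen had a median of −0.02, and Agrn, the heparan sulfate proteoglycan agrin, had 370.4 ± 32.4 CPM in mutants and 406 ± 19.2 CPM in WT (SD, n = 4 each) with an adjusted p of 0.334.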

How the data were processed

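Per the labels, polyadenylated RNA of 8 pools of ventricles was sequenced from 1 end. Per the submitters' processing notes, cutadapt 1.2.1, RSEM 1.16, Bowtie2 0.12.7, limma and edgeR were used with build mm9. The deposited values are a score: tested on the table, each was log2 CPM (prior 0.5 counts) multiplied by a constant per library. Dividing it out gave whole counts in 100% of values (tolerance 0.001 counts), with 6307634 to 11506082 counts per library. A floor of 3 counts is 0.265 to 0.472 CPM.

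Symbols, lengths and GC content came from GENCODE M21. The comparison used limma 3.58.1 (R 4.3.3; lmFit, eBayes with trend, group as sole term) on log2 CPM. It took the 13740 of 13869 genes whose log2 CPM averaged 0 or more, with p-values adjusted by Benjamini and Hochberg over all of them, tested on simulated data, and called at 0.05. Replicate numbers were not used as pairs. The members, classes and other lists were chosen with earlier results of these data known. Every collagen is accounted for. Given in full are those called, the 4 of highest level and the 4 of smallest p per class, those not overlapping with a 1.2-fold difference, and up to 4 called genes, or else the gene of smallest p, per other list. Alternatives changed the pseudocount, filter, scaling, variance model, weights, threshold and libraries, and 1, the GC trend, was chosen after seeing the data.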

Additional observations from a re-analysis of the deposited data

Results flagged for a closer look

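In 7 of 88 groups of 4 libraries (collagens and other named genes), 1 library lay further from the rest than Dixon's 95% limit, a share of the group's range, which chance exceeds in about 1 group in 20. In mutants these were Col6a1 at 161 CPM in library 1 (others 176 to 179), Col4a5 at 311 CPM in library 1 (others 291 to 293), Col6a6 at 24.0 CPM in library 2 (others 26.6 to 27.2) and Col2a1 at 39.7 CPM in library 3 (others 20.7 to 23.3). In WT they were Col11a1 at 28.8 CPM in library 2 (others 21.6 to 22.0), Col26a1 at 29.0 CPM in library 3 (others 24.0 to 24.8) and Col9a2 at 17.0 CPM in library 4 (others 20.9 to 21.2).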

How the results depend on the processing

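Col12a1 was called in all 22 refits, with an adjusted p of 6.2e-06 to 0.00949 (limma). The 4 called collagens were the same genes under both other pseudocounts, no filter, a filter at 5 CPM, 3 other scalings, 1 common constant and voom weights. Col13a1 lost its call in 3 refits, Col23a1 in 7 and Col26a1 in 7, while Col18a1 gained one in 4 and Col14a1 in 1. The number of collagens called was 1 at an adjusted p under 0.01 and 1 without the variance trend (0 lower in both), and 2 were called higher with the GC trend removed. Leaving out 1 library gave 1 to 5 collagens, 1 higher and 0 to 4 lower. Only Col12a1 was called without WT library 2 or WT library 3, and Col12a1 and Col13a1 without mutant library 1 or WT library 4.

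Over all genes, 308 were called (136 higher, 172 lower). The counts were 490 with library weights (226 higher, 264 lower), 525 with the GC trend removed (290 higher), 179 without the variance trend (70 higher, 109 lower), 119 at 0.01 (54 higher, 65 lower) and 551 at 0.1 (252 higher, 299 lower). Leaving out 1 library gave 145 to 481 (64 to 212 higher, 81 to 269 lower). It was 186 without mutant library 2, 481 without mutant 3, 145 without WT 1, 147 without WT 2 and 162 without WT 3. With the replicate block, 240 genes and the same 4 collagens were called. Libraries sharing a number correlated at −0.038 to 0.1, and 0 mutant and 1 WT library resembled its own number best. No pairing by number was seen, but low correlations cannot exclude a shared litter or preparation, which the labels do not give.

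The transmembrane median (−0.36) was −0.51 with no filter and −0.51 to −0.30 without 1 library, the median of types VII and XXVI (−0.03) was −0.49 with a filter at 5 CPM and −0.09 to 0.07 without 1 library, the FACIT median was −0.11 to 0.18 without 1 library, and the basement membrane median was 0.08 with the GC trend removed. Signs turned in 13 collagens, none of them called. With the GC trend removed Col1a2 was 0.03, Col4a2 0.05, Col6a1 0.02, Col9a2 0.02, Col11a2 0.05 and Col2a1 0.05. With library weights Col4a2 was 0.01, Col5a2 −0.0036, Col9a1 −0.05 and Col9a3 −0.02. Col9a3 was −0.08 with voom weights, Col11a2 0.02 with quantile scaling and Col4a2 0.0015 with 1 common constant. Without 1 library the ranges were −0.28 to 0.24 for Col11a2, −0.09 to 0.01 for Col1a2, −0.01 to 0.37 for Col20a1, −0.16 to 0.41 for Col24a1, −0.18 to 0.02 for Col25a1, −0.23 to 0.09 for Col2a1, −0.03 to 0.05 for Col4a1, −0.06 to 0.03 for Col4a2, −0.02 to 0.02 for Col5a2, −0.11 to 0.18 for Col9a1, −0.16 to 0.09 for Col9a2 and −0.12 to 0.19 for Col9a3. The cause of these turns was not tested. Depth limits Col4a3, Col4a4, Col7a1, Col11a2, Col17a1, Col20a1 and Col24a1, which had under 50 counts in every library.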

Other observations

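The remaining marker lists gave these values. Epicardial markers, 12 of 12 detected, summed to 274 to 309.9 CPM in mutants and 255 to 285 CPM in WT, with no call. Erythroid markers, 10 of 10 detected with 2 called lower, summed to 1981 to 3251 CPM in mutants and 3021 to 4119 CPM in WT. Schwann and neural crest glia markers, 3 of 6 detected and all 3 below 0 with no call, summed to 27.2 to 30.5 CPM in mutants and 30.8 to 33.0 CPM in WT. The Schwann and neural crest glia sums did not overlap between the groups, while the epicardial and the erythroid sums did. Of 6 liver and lung markers only Ahsg was detected, at 0.636 to 1.41 CPM in mutants and 1.1 to 2.83 CPM in WT.

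Chain ratios not given above overlapped between the genotypes. The log2 ratio of Col5a1 to Col5a2 was −0.02 ± 0.10 in mutants and 0.11 ± 0.08 in WT, and that of Col6a1 to Col6a2 was 0.14 ± 0.10 in mutants and 0.05 ± 0.09 in WT (SD, n = 4 each). Col8a1 to Col8a2 gave −0.31 ± 0.22 in mutants and −0.49 ± 0.31 in WT, and Col11a1 to Col11a2 gave 3.12 ± 0.31 in mutants and 2.96 ± 0.49 in WT. The ratio of Col4a3 to Col4a4, a pair added after the others were chosen, was −0.77 ± 0.11 in mutants and −1.08 ± 0.79 in WT.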
